A study of Mus musculus with 16 samples.

Results

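The clustered protocadherins were followed in cultured mouse hippocampal neurons with normal or reduced Dnmt3a1, at rest and after raised network activity. All genes with a mouse symbol starting with Pcdha, Pcdhb or Pcdhg were taken, which gave 58 of the 55385 genes in the files. The alpha cluster had 14 members, the beta cluster 22 and the gamma cluster 22. After the filter on low counts 57 members remained among 17222 genes tested, and Pcdhb1, with 1 to 14 estimated counts per library, did not. The cultures came from the hippocampi of newborn C57Bl/6N mice and were infected on day in vitro 4 with a recombinant adeno-associated virus, so that the controls carried a virus and a hairpin as well. Control-shRNA is a hairpin of unspecific sequence and Dnmt3a1-shRNA targets the long isoform of the DNA methyltransferase Dnmt3a. The virus also carried GFP under the chicken beta-actin promoter, which is not restricted to neurons, and only 1 hairpin against Dnmt3a1 was sequenced. Each shRNA was measured in baseline and after 4 h of 50 µM bicuculline, a blocker of GABA-A receptors that raises the firing of the network, on day in vitro 9 to 11. The 16 libraries formed 4 groups of 4 (Control-shRNA in baseline, Control-shRNA with bicuculline, Dnmt3a1-shRNA in baseline and Dnmt3a1-shRNA with bicuculline), and the study describes the 4 of a group as independent neuronal preparations.

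Clustered protocadherins are cadherin-like adhesion proteins of the neuronal surface. Cells that display the same combination recognise each other through them, and in the brain they are known for the self-avoidance of neurites, for dendrite branching and for the survival of interneurons. In the alpha and gamma clusters each variable exon has its own promoter and codes for the extracellular part, the membrane span and a short tail, and it is spliced to constant exons that all members of the cluster share. Beta members are single-exon genes without a shared constant part. The alternate members are switched on by a largely random choice of promoters in each neuron, in which CTCF, cohesin and promoter DNA methylation take part, whereas the C-type members (Pcdhac1, Pcdhac2, Pcdhgc3, Pcdhgc4 and Pcdhgc5) are used more uniformly.

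The 3 clusters lie one after the other on the plus strand of chromosome 18 (GRCm38, GENCODE M21). The alpha cluster runs from 36930184 to 37187661, with 12 alternate members followed by 2 C-type members. The beta cluster runs from 37264938 to 37524479. The gamma cluster runs from 37661793 to 37841873, with 12 gamma A and 7 gamma B members followed by 3 C-type members. The shared exons limit how well reads can be assigned. The median share of a member's 31-base words found in no other annotated gene was 35.7% in the alpha cluster, 88.2% in the beta cluster and 51.0% in the gamma cluster. The lowest values were 7.77% for Pcdha4, 33.1% for Pcdhb12 and 0.617% for Pcdhga10, and the highest in the gamma cluster was 62.6% for Pcdhgc4. In the alpha cluster 2830 such words, and in the gamma cluster 2086, were present in every member, against 0 in the beta cluster. The values of alpha and gamma members are therefore uncertain where the counting tool had to divide reads of the constant exons, and the members of these clusters are not independent measurements. Antisense transcripts lie in the same intervals, among them BC037039 opposite Pcdhgc3, and whether the libraries kept strand is not given in the sources used here.

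Between 28912697 and 29586355 pairs were counted per library, so depth differed little. Dnmt3a, counted over both of its isoforms, was at 312 ± 13.8 CPM (SD, n = 4) in Control-shRNA and 44.5 ± 3.66 in Dnmt3a1-shRNA in baseline, and at 327 ± 11.8 and 45.3 ± 1.72 with bicuculline. CPM are counts scaled to the library total after adjustment by the TMM method, which sets the bulk of genes to no change. The markers that define neurons were present in every library. The 6 neuronal markers summed to 5738 to 6324 CPM in Control-shRNA and 6477 to 7600 in Dnmt3a1-shRNA in baseline, and the 6 astrocyte markers to 238 to 412 and 313 to 554. The 6 microglial markers together stayed at or under 4.92 CPM in every library, and Csf1r among them was called lower with the knockdown in both conditions. The 4 proliferation markers stayed at or under 1.57 CPM, the 7 oligodendrocyte markers lay between 98.6 and 225 CPM and the 6 of fibroblasts and vessels between 46.4 and 108. The 5 markers of excitatory neurons summed to 2386 to 2659 CPM in Control-shRNA and 2149 to 2395 in Dnmt3a1-shRNA in baseline, with 0 called in the knockdown. In bulk RNA, fewer cells of a type and less RNA per cell cannot be told apart.

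The 4 highest members were C-type genes. On the TPM scale, which corrects for transcript length, Pcdhgc4 was highest with a mean of 99.0 ± 20.7 TPM (SD over the 16 libraries). Pcdhac2 followed at 78.3 ± 7.54, Pcdhgc3 at 71.9 ± 10.6 and Pcdhgc5 at 42.7 ± 8.10. Pcdhac2 and Pcdhgc3 lay within their spread of each other. Among the alternate members Pcdhga11 was highest at 31.04 ± 4.96 TPM, followed by Pcdhga3 at 25.9 ± 2.20 and, in the alpha cluster, Pcdha5 at 15.7 ± 2.40. Every beta member stayed below 10 TPM on average, with Pcdhb9 at 9.77 ± 1.80 and Pcdhb7 at 6.53 ± 1.06 as the highest. The other C-type member, Pcdhac1, was only at 3.58 ± 0.815 TPM. The lowest levels were those of Pcdhgb8, annotated as a polymorphic pseudogene, at 0.60 ± 0.142, of Pcdha8 at 0.568 ± 0.198 and of Pcdhb1 at 0.153 ± 0.108. Within its cluster Pcdhac2 held 39.5% of the alpha TPM, Pcdhgc4 23.0% of the gamma TPM and Pcdhb9 13.3% of the beta TPM.

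**Figure D1:**
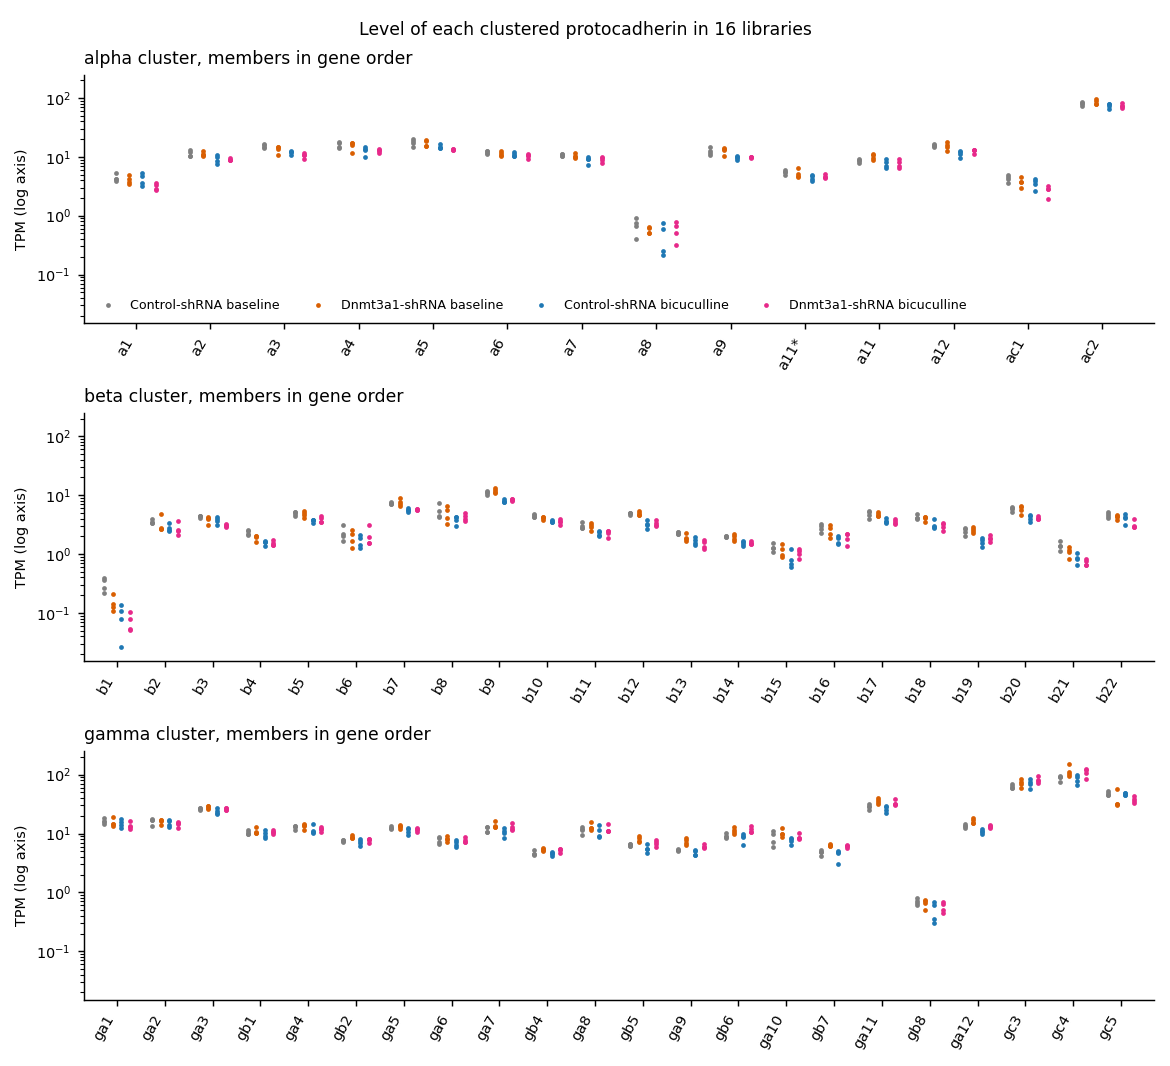
TPM (log axis) of the 58 members in each of the 16 libraries, in gene order within each cluster, with the 4 groups in 4 colours and 1 point per library (a11* is the first of the 2 identifiers that carry the symbol Pcdha11). The 4 highest members are C-type genes, with Pcdhgc4 at a mean of 99.0 TPM, and every beta member lies below 10 TPM on average.

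On the CPM scale the summed gamma cluster separated the Dnmt3a1-shRNA from the Control-shRNA libraries, and neither the alpha nor the beta cluster did. In baseline the summed gamma CPM were 817, 836, 850.3 and 806 in the Control-shRNA libraries and 993, 1071, 1038 and 1011 in the Dnmt3a1-shRNA libraries, a mean of 827 ± 19.6 against 1028 ± 34.2. With bicuculline the sums were 829, 1016, 931 and 855 in Control-shRNA and 1101, 1118, 1155 and 1070 (1069.7) in Dnmt3a1-shRNA, or 908 ± 84.2 against 1111 ± 35.6. In both conditions every knockdown library lay above every control library, and the mean was 24.3% and 22.4% higher. The alpha sums were 540.1 ± 23.7 and 593 ± 38.3 CPM in baseline and 535 ± 10.6 and 563 ± 22.7 with bicuculline, and the groups overlapped. The beta sums were 152 ± 9.42 and 157 ± 12.7 CPM in baseline and 129 ± 3.94 and 137 ± 8.19 with bicuculline, and these groups overlapped too. On summed TPM the separation of the gamma cluster was lost. The baseline sums were 393, 422, 448 and 394 TPM in Control-shRNA and 408, 491, 512 and 457 in Dnmt3a1-shRNA, and those with bicuculline were 339, 449.8, 425 and 376 against 405, 437, 499 and 445. The groups overlapped in both conditions, and the log2 ratio was 0.17 in each, against 0.31 and 0.29 on CPM.

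**Figure D2:**
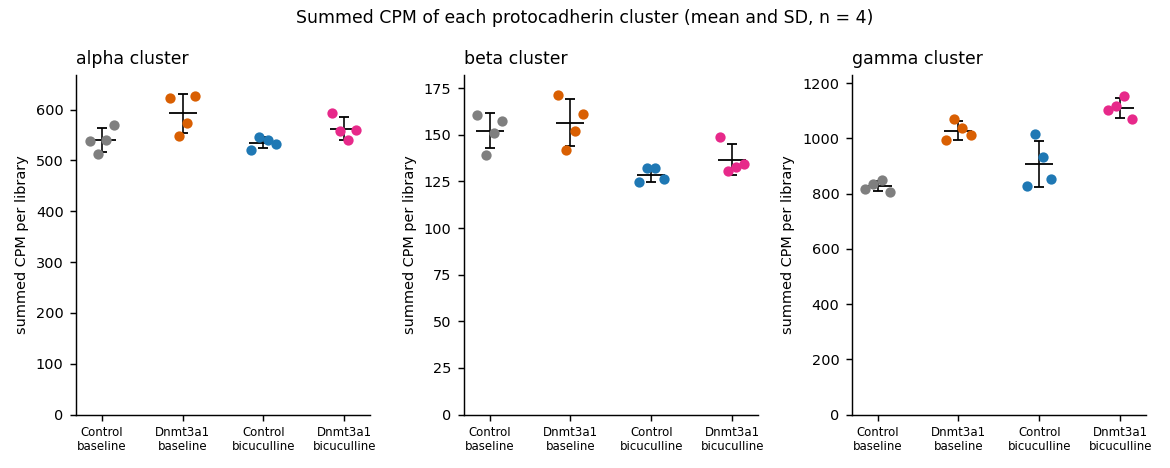
Summed CPM of the alpha, beta and gamma members in each library, with the mean and SD (bars) of the 4 libraries of each group. In the gamma cluster the Dnmt3a1-shRNA libraries lie above all Control-shRNA libraries of the same condition, with means of 1028 against 827 in baseline and 1111 against 908 with bicuculline.

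Member by member, the increase ran through much of the gamma cluster and was modest in size. In baseline 13 of 22 gamma members had an adjusted p under 0.05 (edgeR's quasi-likelihood test, Benjamini-Hochberg over 17222 genes), all 13 higher with Dnmt3a1-shRNA, which is 59.1% of them against 8.12% of all genes tested. The median log2 fold change of the 22 was 0.33, against 0.01 over all genes, and 21 of the 22 were above 0, as were 51.2% of all genes. With bicuculline 13 of 22 passed again, all higher, against 7.69% of all genes, with a median of 0.30 and 20 of 22 above 0, where 49.1% of all genes were. In this fit, without a block for the replicate number, no member passed in the lower direction in either condition, in which 8.19% and 9.99% of all genes did. By type, 6 of 12 gamma A, 5 of 7 gamma B and 2 of 3 gamma C-type members rose in baseline, and the counts with bicuculline were the same. With the replicate number as a block, 16 gamma members passed in baseline, where same-numbered libraries deviated together. The 3 gained were Pcdhgb1 (0.19, adjusted p = 0.0244), Pcdhga6 (0.19, adjusted p = 0.0262) and Pcdhga8 (0.31, adjusted p = 0.00853). The groups did not overlap in 17 gamma members in baseline and in 11 with bicuculline, where 9.62% and 9.48% of all genes had every knockdown library above every control library. The reverse held for 0 members, against 10.3% and 11.4% of all genes. The counts of gamma members that passed were 1 in baseline and 2 with bicuculline on log2(TPM + 1), and 7 and 8 without TMM. In the neuronal marker list 1 of 6 genes was called higher in baseline and 0 with bicuculline, with median log2 fold changes of 0.13 and 0.11. In the astrocyte list 1 of 6 was called higher in each condition, with medians of 0.40 and 0.42. Over all genes 1.76% and 2% were called higher. The part of these cell types in the gamma result was not tested.

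With a fold threshold added, few members remained. With the added demand of a log2 fold change beyond 0.5 in size, 3 members were called in baseline and 3 with bicuculline, all of the gamma cluster and all higher, while 5.83% and 5.89% of all genes were called in either direction with 1.76% and 2% higher and 4.07% and 3.9% lower. The count with bicuculline was 1 without Control-shRNA bicuculline replicate 1. The called members were Pcdhga9, Pcdhgb7 and Pcdhgc4 in baseline and Pcdhgb6, Pcdhgb7 and Pcdhgc4 with bicuculline. Pcdhgc4 (37815079 to 37841873), the one gamma isoform known to be needed for neuronal survival, was at 150.2, 143, 141 and 125 CPM in Control-shRNA and 197, 261, 184 and 208 in Dnmt3a1-shRNA in baseline. With bicuculline it was at 128, 174, 158 and 138 against 198, 228, 233 and 234 CPM. No knockdown library overlapped the controls in either condition, and the log2 fold changes were 0.60 (SE 0.11, adjusted p = 8.90e-04) and 0.58 (SE 0.11, adjusted p = 0.00121). Without Dnmt3a1-shRNA baseline replicate 2, the highest of its group, the baseline value was 0.49.

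The 3 called alternate members lie in the last part of the gamma array, where Pcdhga10 stands between Pcdhgb6 and Pcdhgb7. Pcdhga9 (37736936 to 37841870) was at 11.6, 11.2, 10.9 and 12.1 CPM in Control-shRNA and 16.2, 16.4, 17.6 and 18.2 in Dnmt3a1-shRNA in baseline, and at 11.5, 12.7, 12.2 and 10.7 against 17.2, 16.4, 16.5 and 15.3 with bicuculline. Neither pair of groups overlapped, and the log2 fold changes were 0.58 (SE 0.07, adjusted p = 3.38e-05) and 0.47 (SE 0.07, adjusted p = 2.57e-04). The second value lay below the fold threshold and passed it without Control-shRNA bicuculline replicate 2 (0.51) or Dnmt3a1-shRNA bicuculline replicate 4 (0.50).

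Pcdhgb6 (37742094 to 37841873) was at 19.4, 19.4, 20.97 and 18.9 CPM in Control-shRNA and 24.8, 25.9, 27.5 and 26.5 in Dnmt3a1-shRNA in baseline, and at 17.0, 24.2, 21.2 and 21.5 against 30.99, 35.9, 29.5 and 28.0 with bicuculline. Again no library of one group reached the range of the other. Its log2 fold change was 0.41 (SE 0.09, adjusted p = 0.00595) in baseline and 0.57 (SE 0.09, adjusted p = 4.82e-04) with bicuculline. The second fell under the fold threshold without Control-shRNA bicuculline replicate 1 (0.47) or Dnmt3a1-shRNA bicuculline replicate 2 (0.49), and without TMM (0.49).

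Pcdhgb7 (37751600 to 37841873) was at 11.2, 9.06, 9.90 and 11.6 CPM in Control-shRNA and 16.4, 14.6, 12.8 and 15.9 in Dnmt3a1-shRNA in baseline, and at 8.196, 12.7, 11.4 and 11.6 against 16.5, 17.8, 14.98 and 16.2 with bicuculline. Its groups did not overlap in either condition. The log2 fold changes were 0.51 (SE 0.12, adjusted p = 0.00734) and 0.58 (SE 0.12, adjusted p = 0.00327). The baseline call, close to the threshold, was lost without Control-shRNA baseline replicate 2 (0.45) or 3 (0.49) and without Dnmt3a1-shRNA baseline replicate 1 (0.46) or 4 (0.48), and the call with bicuculline without Control-shRNA bicuculline replicate 1 (0.46). Without TMM the baseline call was lost as well (0.43). The TPM values gave none of these 6 calls, with a pseudocount of 1 or of 0.1, and the log2 fold changes lay between 0.34 and 0.48.

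The other C-type members did not all move with Pcdhgc4. Pcdhgc3, which is known to promote dendrite branching, was at 130.4, 137, 138 and 127 CPM in Control-shRNA and 151, 177, 178 and 162 in Dnmt3a1-shRNA in baseline, with no overlap. It rose by 0.33 on the log2 scale (SE 0.08, adjusted p = 0.00818) in baseline and by 0.27 (SE 0.08, adjusted p = 0.0243) with bicuculline, where the groups of 153, 206, 179 and 174 against 209, 217, 228 and 202 CPM overlapped. Pcdhgc5, an isoform that binds GABA-A receptors and stabilises inhibitory synapses, was at 83.7, 80.1, 93.0 and 87.6 CPM in Control-shRNA and at 69.2, 68.6, 102 and 66.8 in Dnmt3a1-shRNA in baseline. In 3 of the 4 knockdown libraries it lay below all controls, and in replicate 3 above them. Its log2 fold change was -0.17 (SE 0.12, adjusted p = 0.39), or -0.34 with an adjusted p of 0.0169 without that library. With bicuculline it was at 92.6, 98.1, 93.1 and 85.6 CPM against 82.2, 68.2, 91.6 and 70.9, a log2 fold change of -0.24 (SE 0.12, adjusted p = 0.183) with overlapping groups. The share of Pcdhgc5 in the gamma TPM was 11.7% ± 0.722 in Control-shRNA and 7.98% ± 2.05 in Dnmt3a1-shRNA in baseline, where the groups overlapped, and 11.96% ± 1.17 against 8.51% ± 0.927 with bicuculline, where they did not.

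**Figure D3:**
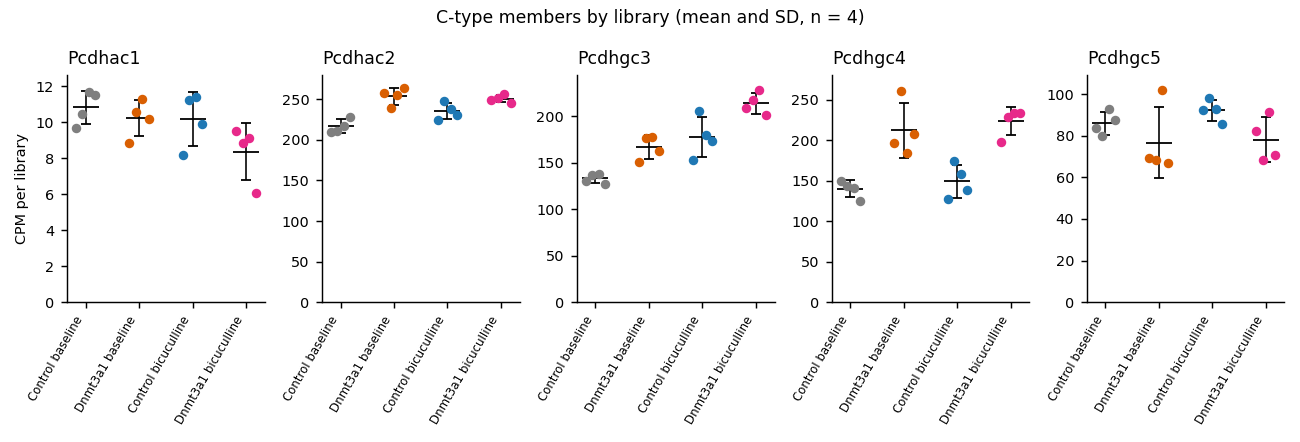
CPM of the 5 C-type members in each library, with the mean and SD (bars) of the 4 libraries of each group. Pcdhgc4 separates the knockdown from the control libraries in both conditions, whereas Pcdhgc5 has means of 86.1 and 76.7 CPM in baseline with 1 knockdown library at 102.

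In the alpha cluster 1 of 14 members passed the test in baseline and 0 with bicuculline, and with the block 2 passed in baseline, the second of them a Pcdha11 gene (ENSMUSG00000102206.5) at 0.30 with an adjusted p of 0.0207. Pcdhac2, which is known for the spacing of serotonergic axons, was at 209.9, 212, 217 and 229 CPM in Control-shRNA and 258, 239, 255.2 and 264 in Dnmt3a1-shRNA in baseline. The groups did not overlap, and the log2 fold change was 0.23 (SE 0.05, adjusted p = 0.00451). Over the alternative fits it was 0.11 to 0.26, and the adjusted p reached 0.452. With a library left out the adjusted p of edgeR stayed at or under 0.0191. With bicuculline the values of 224, 248, 239 and 231 against 249, 252, 257 and 246 CPM overlapped, and the log2 fold change was 0.09 (SE 0.05, adjusted p = 0.229). In TPM the direction in bicuculline turned (-0.01). The other alpha C-type, Pcdhac1, was at 9.70, 10.5, 11.7 and 11.5 CPM against 8.88, 10.6, 11.3 and 10.2 in baseline, and at 8.18, 11.2, 11.4 and 9.89 against 9.49, 8.86, 9.10 and 6.05 with bicuculline, with log2 fold changes of -0.08 (SE 0.13, adjusted p = 0.735) and -0.28 (SE 0.13, adjusted p = 0.164). For the 0 of 14 alpha members with bicuculline, 2 had an unadjusted p under 0.05 in edgeR, and voom and DESeq2 also found 0 at the adjusted threshold. In edgeR with the block, where the numbers were not taken as pairs, Pcdha12 (0.25, adjusted p = 0.00872) and Pcdha1 (-0.34, adjusted p = 0.0311) passed.

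Without the block, no beta member passed the test of the knockdown in either condition. Of the 21 tested, 1 in baseline and 2 with bicuculline had an unadjusted p under 0.05, and voom and DESeq2 found 0 at the adjusted threshold as well. The median log2 fold change was -0.02 in baseline and 0.12 with bicuculline. Pcdhb9, the most abundant beta member, was at 15.9, 13.6, 15.5 and 15.6 CPM in Control-shRNA and at 19.6, 17.2, 17.5 and 15.96 in Dnmt3a1-shRNA in baseline. It gave 0.21 (SE 0.08, adjusted p = 0.0883) there, although the groups did not overlap, and 0.19 (SE 0.08, adjusted p = 0.131) with bicuculline. In baseline, where same-numbered libraries deviated together, the fit with the replicate number as a block gave Pcdhb9 0.21 with an adjusted p of 0.0308.

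**Figure D4:**
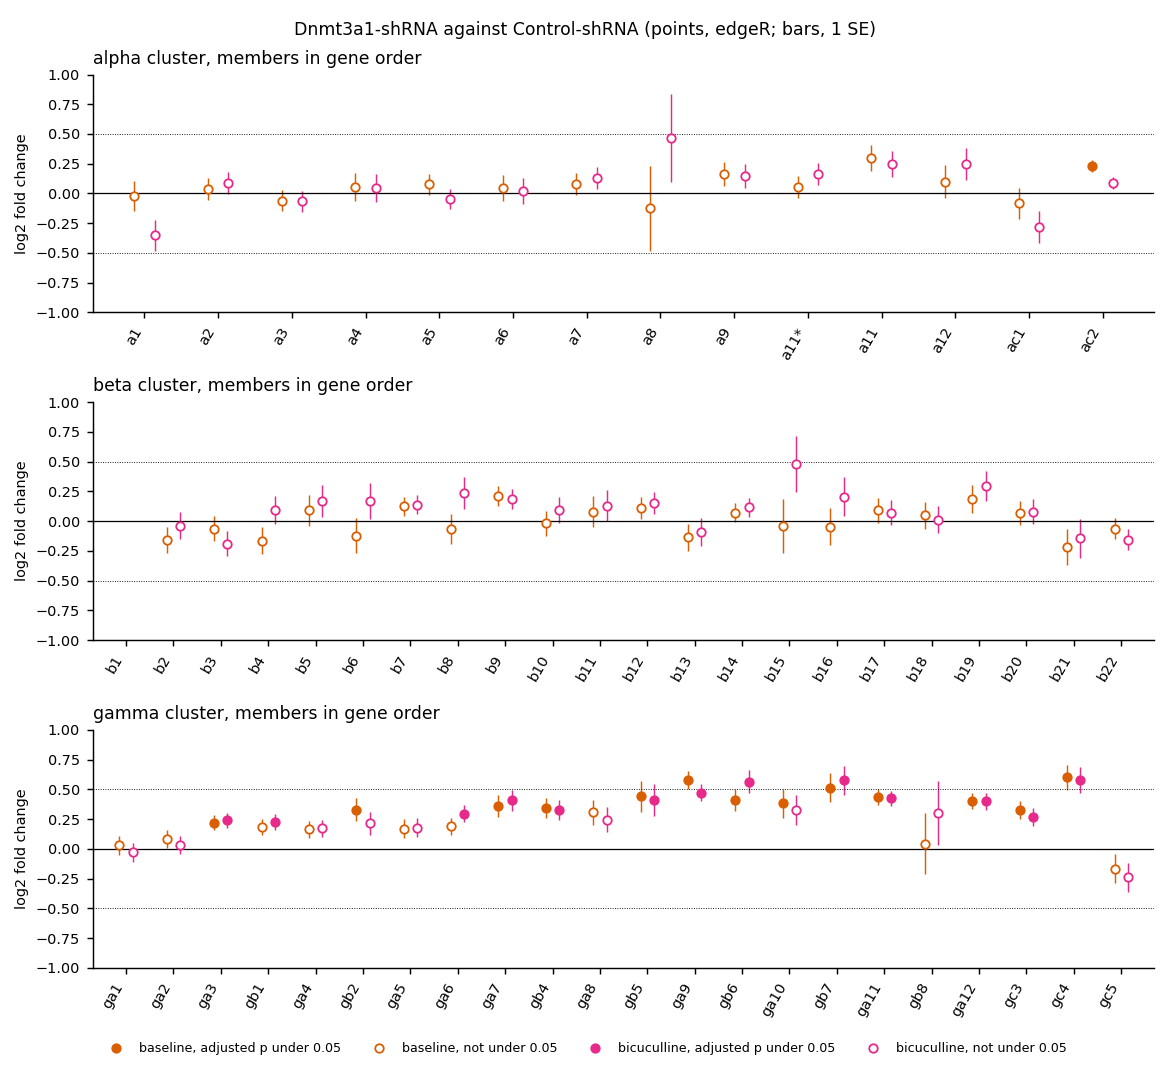
log2 fold change (Dnmt3a1-shRNA over Control-shRNA, bars 1 SE) of each member in gene order, in baseline and with bicuculline; filled points have an adjusted p under 0.05 and dotted lines mark 0.5 and -0.5. The gamma panel lies mostly above 0, with 13 of 22 filled points in each condition, and values of the gamma A and B members are higher toward the end of the array, with Pcdhgc5 below 0.

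In the gamma array without its C-type members, the log2 fold changes of the knockdown were higher toward the end of the array. Over the 19 gamma A and B members, Spearman's rho between the position in the array and the log2 fold change was 0.63 in baseline and 0.78 with bicuculline. The first 9 had a median log2 fold change of 0.19 in baseline and 0.22 with bicuculline, the last 10 of 0.41 and 0.40. Pcdhga1 and Pcdhga2, at the start of the array, were at 0.03 (SE 0.08) and 0.09 (SE 0.08) in baseline, whereas Pcdhga11 and Pcdhga12, near its end, were at 0.44 (SE 0.07, adjusted p = 2.12e-04) and 0.41 (SE 0.07, adjusted p = 5.28e-04). Pcdhgb8, between those last members, was at 0.04 (SE 0.26), with 0.60 TPM on average. Over all 22 gamma members, C-types included, rho was lower, at 0.43 and 0.52. Of the 12 alternate alpha members none passed the test in either condition without the block. Over them rho was 0.67 and 0.83 (0.46 and 0.49 over all 14 alpha members), with medians of 0.04 and 0.09 for the first and last 6 in baseline and -0.01 and 0.21 with bicuculline. In the beta cluster rho was 0.15 and -0.10 over 21 members. These are descriptions over genes of the same libraries that share exons and reads, and no test was made of them.

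The comparisons in baseline and with bicuculline share no library, but they are not independent. Both used the same hairpin and 1 shared estimate of the spread. Same-numbered Control-shRNA libraries of baseline and bicuculline also deviated together (r of 0.142 to 0.221). Of the 13 gamma members that passed in each, 11 passed in both, which is 84.6% of either list: Pcdhga3, Pcdhga7, Pcdhga9, Pcdhga11, Pcdhga12, Pcdhgb4, Pcdhgb5, Pcdhgb6, Pcdhgb7, Pcdhgc3 and Pcdhgc4. Across the 22 gamma members Pearson's r between the log2 fold changes was 0.90, and 20 members were above 0 in both. It was 0.28 over the 14 alpha and 0.43 over the 21 beta members. No p is given for these correlations across genes. Neither the overlap nor the correlation was computed over all genes, so these values have no background to be set against.

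With bicuculline the mean of the summed beta cluster was lower in both shRNAs, with overlap on CPM in Dnmt3a1-shRNA. In the fit without a block few members of the other clusters passed the test. In Control-shRNA the summed beta CPM were 161, 139, 151 and 158 in baseline and 125, 132, 132 and 126 with bicuculline, so that every treated library lay below every baseline library, with a mean 15.4% lower. In Dnmt3a1-shRNA they were 171, 142, 152 and 161 in baseline and 149, 131, 133 and 134 with bicuculline, a mean 12.7% lower with overlapping groups. On TPM the beta groups did not overlap in either shRNA. The alpha sums in CPM overlapped in both shRNAs, whereas in TPM they were lower with bicuculline without overlap, at 213.7 ± 13.7 and 184 ± 12.3 in Control-shRNA and 216 ± 16.8 and 179.9 ± 4.70 in Dnmt3a1-shRNA (log2 ratios of -0.21 and -0.27). The gamma sums were 9.72% and 8.04% higher with bicuculline, with overlapping groups, and this direction turned without TMM and on TPM (log2 ratios of -0.02 and -0.06 in Control-shRNA, -0.04 and -0.06 in Dnmt3a1-shRNA).

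**Figure D5:**
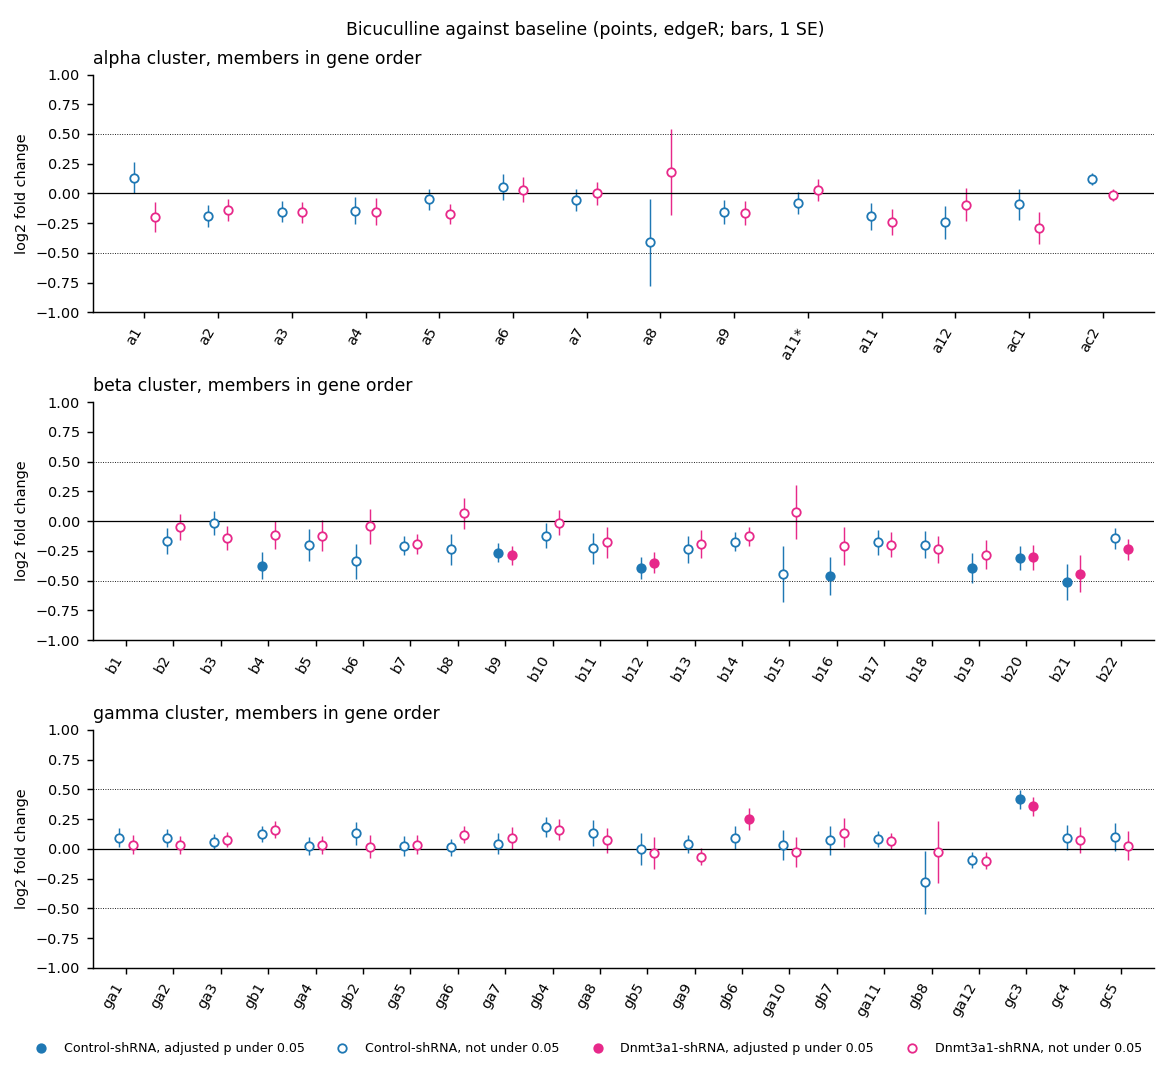
log2 fold change (bicuculline over baseline, bars 1 SE) of each member in gene order, in Control-shRNA and Dnmt3a1-shRNA; filled points have an adjusted p under 0.05 and dotted lines mark 0.5 and -0.5. All 21 beta points of Control-shRNA lie below 0, and Pcdhgc3 is the one gamma member with filled points in both shRNAs.

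In Control-shRNA all 21 tested beta members had a log2 fold change below 0, with a median of -0.24, and this held without TMM and on TPM, while 50.6% of all genes were above 0. At an adjusted p under 0.05, 7 of 21 fell, which is 33.3% against 21.9% of all genes tested. These 7 were Pcdhb4, Pcdhb9, Pcdhb12, Pcdhb16, Pcdhb19, Pcdhb20 and Pcdhb21, with log2 fold changes from -0.51 to -0.26, and with the block Pcdhb7 passed as well (-0.20, adjusted p = 0.0316). In Dnmt3a1-shRNA 5 of 21 fell, 23.8% against 25.2% of all genes, a share near the background, with a median of -0.19 and 19 of 21 below 0, while 49.2% of all genes were above 0. Every treated library lay below every baseline library for 40.9% of the beta members in Control-shRNA and 13.6% in Dnmt3a1-shRNA. Over all genes these shares were 21.4% and 22.1%. The shares at the adjusted p depend on the libraries and the scaling. The count in Control-shRNA was 4 without Control-shRNA baseline replicate 4, and that in Dnmt3a1-shRNA was 2 without Dnmt3a1-shRNA baseline replicate 1 and 3 without baseline replicate 4, bicuculline replicate 2 or bicuculline replicate 3 of Dnmt3a1-shRNA. Without TMM, which moved the median of all genes to -0.15 and -0.16, the counts were 20 and 13.

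With the fold threshold, 1 member was called in Control-shRNA and 0 in Dnmt3a1-shRNA, where 21.9% and 25.8% of all genes were called in either direction. The one was Pcdhb21 (37513621 to 37518325), a low beta member, with 3.15, 2.44, 3.39 and 3.02 CPM in baseline and 1.72, 2.14, 1.97 and 2.61 with bicuculline. The highest treated library lay above the lowest baseline library, and the log2 fold change was -0.51 (SE 0.15, adjusted p = 0.0123). The call, close to the threshold, was lost without Control-shRNA baseline replicate 1 (-0.49) or 3 (-0.45) and without Control-shRNA bicuculline replicate 1 (-0.43) or 3 (-0.48), and in DESeq2 (-0.50). In Dnmt3a1-shRNA Pcdhb21 was at 2.78, 2.02, 2.75 and 2.75 CPM in baseline and 1.87, 1.75, 2.002 and 2.01 with bicuculline, and all treated libraries lay below the baseline ones. It fell by 0.44 on the log2 scale there (SE 0.16, adjusted p = 0.0288), or by 0.54 without Dnmt3a1-shRNA baseline replicate 2, which passes the fold threshold. For the 0 members called in Dnmt3a1-shRNA, 12 of 57 had an unadjusted p under 0.05 in edgeR, and voom and DESeq2 also called 0.

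Pcdhb9 fell in both shRNAs. Its values with bicuculline were 13.1, 12.5, 11.4 and 13.5 CPM in Control-shRNA and 15.6, 14.02, 13.2 and 14.7 in Dnmt3a1-shRNA, below every baseline library of the same shRNA. The log2 fold changes were -0.26 (SE 0.08, adjusted p = 0.0162) and -0.29 (SE 0.08, adjusted p = 0.00811). Pcdhb12, at -0.39 (SE 0.09, adjusted p = 0.00198) and -0.35 (SE 0.09, adjusted p = 0.00414), and Pcdhb20, at -0.31 (SE 0.10, adjusted p = 0.0204) and -0.31 (SE 0.10, adjusted p = 0.0205), also passed in both. The counts of Pcdhb12 are less certain, as 63.1% of its 31-base words also occur in genes outside the family.

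In the gamma cluster Pcdhgc3 went the other way. It rose with bicuculline by 0.42 on the log2 scale in Control-shRNA (SE 0.08, adjusted p = 3.31e-04) and by 0.36 in Dnmt3a1-shRNA (SE 0.08, adjusted p = 0.00103), and in both shRNAs every treated library, given above, lay above every baseline library. Over the alternative fits the rise was as low as 0.19 and 0.16, and the adjusted p reached 0.218 and 0.288. With a library left out the adjusted p of edgeR stayed at or under 0.00176 and 0.00542. Its share of the gamma TPM rose from 15.1% ± 0.291 to 18.03% ± 0.897 in Control-shRNA and from 15.5% ± 0.666 to 18.1% ± 0.645 in Dnmt3a1-shRNA, with no overlap. The antisense gene BC037039 opposite it was at 2.94 CPM in baseline and 4.76 with bicuculline in Control-shRNA, and at 3.28 and 7.11 in Dnmt3a1-shRNA. Its part in the Pcdhgc3 count was not tested. The only other gamma member to pass was Pcdhgb6 in Dnmt3a1-shRNA, at 0.25 (SE 0.09, adjusted p = 0.0375). Pcdhgc4, the most abundant member, was at 0.09 (SE 0.11, adjusted p = 0.52) and 0.07 (SE 0.11, adjusted p = 0.613), and Pcdhgc5 at 0.10 (SE 0.12, adjusted p = 0.539) and 0.03 (SE 0.12, adjusted p = 0.874), and without TMM all 4 values were below 0.

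Without a replicate block, no alpha member passed the test of bicuculline in either shRNA. In edgeR 1 of 14 had an unadjusted p under 0.05 in Control-shRNA and 2 in Dnmt3a1-shRNA. In voom 0 passed, and in DESeq2 1 passed in Control-shRNA and 0 in Dnmt3a1-shRNA. With the replicate number as a block, which pairs the libraries in Control-shRNA, 2 alpha members passed there. One was Pcdha12, at -0.25 with an adjusted p of 0.00429, against 0.175 without the block, and the other Pcdhac2. Pcdhac2 gave 0.12 (SE 0.05, adjusted p = 0.0642) in Control-shRNA, with overlapping groups, and 0.12 with an adjusted p of 0.0393 in the fit with the block. On TPM the value was -0.09, so its direction depended on the scaling. Pcdhac1 was at -0.09 (SE 0.13, adjusted p = 0.625) and -0.29 (SE 0.13, adjusted p = 0.0875). The summed markers of GABAergic neurons were at 1257 to 1602 CPM in baseline and 1853 to 2328 with bicuculline in Control-shRNA, with 3 of 5 called higher, and at 984 to 1282 and 1580 (1579.6) to 2084 in Dnmt3a1-shRNA, again with 3 of 5 called higher. Their part in the values of the protocadherins was not tested.

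The response to bicuculline was not found to differ between the shRNAs for any member. In the interaction 0 of 57 members had an adjusted p under 0.05, against 0% of all genes tested. None had an unadjusted p under 0.05 in edgeR or voom, and 1 had in DESeq2. Over all 17222 genes edgeR and voom found 0 at the adjusted threshold and DESeq2 17. The precision limits what this excludes. The median standard error of the interaction over the members was 0.14 on the log2 scale, and the 95% interval was -0.32 to 0.28 for Pcdhgc4, -0.27 to 0.16 for Pcdhgc3 and -0.36 to 0.50 for Pcdhb21.

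Of 12 protocadherins outside the clusters 11 were tested, with median log2 fold changes of 0.30 and 0.29 for the knockdown (baseline, bicuculline) and 0.31 and 0.29 for bicuculline (Control-shRNA, Dnmt3a1-shRNA). With bicuculline 4 were called higher in Control-shRNA and 5 in Dnmt3a1-shRNA, where 10.8% and 12.6% of all genes were called higher, and 0 were called lower in either. Pcdh8, also called arcadlin and known as an activity-induced gene, rose from 223 ± 4.84 to 1921 ± 370 (369.9) CPM in Control-shRNA, a log2 fold change of 3.11 (SE 0.12, adjusted p = 2.43e-12). Pcdh17 rose from 168 ± 19.5 to 399.8 ± 43.4 CPM there, by 1.25 (SE 0.11, adjusted p = 9.42e-08). With the knockdown 0 of the 11 were called lower. In baseline 1 was called higher and 3 with bicuculline, against 1.76% and 2% of all genes. Pcdh18 was in both, at 0.52 (SE 0.13, adjusted p = 0.00989) and 1.04 (SE 0.12, adjusted p = 1.73e-05), and Pcdh10, a cadherin-like protein of excitatory synapse elimination, and Pcdh19 passed with bicuculline at 0.53 each (adjusted p = 1.65e-04 and 0.00222).

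Of 21 genes known to act on the cluster promoters or on chromatin there, Dnmt3a itself was called lower with the knockdown in each condition and 0 were called higher. With bicuculline 1 of the 21 was called higher and 3 lower in each shRNA. Over all genes 10.8% and 12.6% were called higher and 11.1% and 13.2% lower (Control-shRNA, Dnmt3a1-shRNA). In Control-shRNA the one that rose was Rest, from 2.38 ± 0.262 to 4.52 ± 1.08 CPM (adjusted p = 3.64e-04), and those that fell were the histone methyltransferase genes Setdb1 (-0.52, adjusted p = 4.66e-06) and Ehmt1 (-0.67, adjusted p = 2.04e-07) and the methyltransferase gene Dnmt3b, at 0.395 and 0.133 CPM (-1.54, adjusted p = 0.00151). Of 19 genes for interaction and signalling partners of the proteins, 1 was called lower with the knockdown in baseline (Abi2, -0.61, adjusted p = 1.42e-05) and 2 with bicuculline, and with bicuculline treatment 3 were called lower in each shRNA. Those 3 were Ptk2b, a kinase held in check by protocadherins (-0.58, adjusted p = 2.99e-06 in Control-shRNA), Adam10, a protease that cleaves them (-0.62, adjusted p = 4.10e-07), and Cyfip1 of the WAVE complex (-1.11, adjusted p = 7.63e-09). Over all genes 4.07% and 3.9% were called lower with the knockdown (baseline, bicuculline), and 11.1% and 13.2% with bicuculline (Control-shRNA, Dnmt3a1-shRNA).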

How the data were processed

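RNA of 16 primary hippocampal cultures was sequenced. The authors trimmed the reads with Trim Galore (0.6.4) and assigned them with kallisto to transcripts of GRCm38.p6, and deposited 1 table of estimated counts per gene and 1 of TPM per gene for each library, TPM being scaled for transcript length and library total. The version of kallisto differs between the sources and is not given here. Groups and replicate numbers come from the sample labels. The labels do not give the number of the hairpin.

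The estimated counts were rounded, scaled by TMM, filtered with edgeR's filterByExpr and tested with edgeR 4.0.16 (R 4.3.3), in 1 quasi-likelihood fit of the 4 groups. Adjusted p-values are Benjamini-Hochberg over all 17222 genes. The test was checked on simulated data. Alternatives were voom with limma 3.58.1, DESeq2 1.42.0, other scalings and filters, limma on log2(TPM + 1) and log2(TPM + 0.1), other fold thresholds, a block for the replicate number, fits of only the groups compared, and each library left out. Cluster sums are descriptions without a test. Members, identifiers, coordinates and 31-base words come from GENCODE M21. Of the 58 members, those given by library are the C-type members, the highest member of each cluster by TPM and the called members. In each list of related genes at most 5 called genes are named, and Dnmt3a always. The result of 1 listed gene is not reported here. The members and lists were chosen with earlier results of these data known.

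To see whether replicate numbers pair the libraries, each library's departure from the mean of its group was correlated with that of the library of the same number. The r was 0.142 to 0.221 for bicuculline in Control-shRNA and 0.204 to 0.355 for the knockdown in baseline, above 0.1 for each of the 4 numbers. The numbers were therefore taken as pairs in these comparisons only, and only in values given with the block. The block was fitted over all 16 libraries. Every other p, in these comparisons too, comes from a fit without a block. Within groups, each of 24 pairs of libraries differed by more than counting noise (ratio of chi-square to its degrees of freedom 7.57 to 42.1). Intervals and standard errors rest on 4 libraries a group.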

Additional observations from a re-analysis of the deposited data

Results flagged for a closer look

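In 3 of the 52 sets of 4 values examined for the named members and the cluster sums, 1 library stood apart from the other 3 by Dixon's criterion, and chance gives about 1 in 20. Pcdhgc5 was at 102 CPM in Dnmt3a1-shRNA baseline replicate 3, where the other replicates were at 66.8 to 69.2. Pcdhgc4 was at 198 CPM in Dnmt3a1-shRNA bicuculline replicate 1, against 228 to 234 in the others, and still above all 4 controls. Pcdhb21 was at 2.02 CPM in Dnmt3a1-shRNA baseline replicate 2, against 2.75 to 2.78.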

How the results depend on the processing

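Fits with voom, at least 10 counts in every library, no filter, the replicate block or only the compared groups reversed none of the values of named members. Settings below are in the order no TMM, log2(TPM + 1), log2(TPM + 0.1) unless named. No TMM moved the median of all genes to -0.07 and -0.08 in the knockdown comparisons (baseline, bicuculline) and to -0.15 and -0.16 for bicuculline (Control-shRNA, Dnmt3a1-shRNA). Relative to that shift the gamma median stayed at 0.32 and 0.30. The causes of the changes listed here were not tested. Low members, such as Pcdhb1 and Pcdhgb8, are limited by depth, and the assignment of shared exons limits alpha and gamma members.

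Members called for bicuculline in Control-shRNA numbered 6, 0 and 7, with 0 in DESeq2, 0 with DESeq2 size factors, 2 without the filter, 8 without a fold threshold, 0 at a threshold of 1, and 0 to 2 with a library left out. In Dnmt3a1-shRNA they numbered 1 without TMM, 2 on log2(TPM + 0.1), 7 without a fold threshold, and 0 to 1 with a library left out. For the knockdown in baseline both TPM fits gave 0 and 0, no fold threshold 14, a threshold of 1 gave 0, and leaving out a library 2 to 4. With bicuculline the same gave 0 and 0, 13, 0, and 1 to 4.

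The alternatives for counts at the adjusted p alone were chosen after seeing the data. Gamma members that passed in the knockdown numbered 7, 1 and 1 in baseline (9 to 13 with a library left out) and 8, 2 and 3 with bicuculline (9 to 14). Beta members that passed with bicuculline numbered 20, 16 and 15 in Control-shRNA (4 to 8) and 13, 9 and 9 in Dnmt3a1-shRNA (2 to 6), where 3 passed without the filter.

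With the replicate number as a block, 8 beta members passed with bicuculline in Dnmt3a1-shRNA, where the numbers were not taken as pairs (r of 0.0631 to 0.337, and 5 of 8 libraries correlated best with their own number). There 3 gamma members also passed, all higher, and 2 alpha members, both lower. The alpha members were a Pcdha11 gene (ENSMUSG00000102206.5, -0.25, adjusted p = 0.0298) and Pcdhac1 (-0.29, adjusted p = 0.0411). In the knockdown with bicuculline, also not taken as pairs (r of 0.0667 to 0.388, 4 of 8 libraries), 2 members passed in the lower direction. These were Pcdhgc5 at -0.25 (adjusted p = 0.0348) and Pcdha1 at -0.34 (adjusted p = 0.0311). In the higher direction 17 gamma members and Pcdha12 passed. The block left the counts of called members at 1, 0, 3 and 3.

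For bicuculline in Control-shRNA the direction turned for Pcdhac2 (-0.038, -0.088, -0.089), Pcdhga9 (-0.12, -0.14, -0.16), Pcdhgb6 (-0.064, -0.11, -0.13), Pcdhgb7 (-0.079, -0.12, -0.15, and -0.0070 to 0.19 with a library left out), Pcdhgc4 (-0.061, -0.086, -0.087) and Pcdhgc5 (-0.059, -0.030, -0.031). In Dnmt3a1-shRNA it turned for Pcdhgb7 (-0.0097, -0.048, -0.055), Pcdhgc4 (-0.074, -0.085, -0.085), Pcdhgc5 (-0.13 without TMM, and -0.060 to 0.20 with a library left out) and Pcdhac2 (0.0087 in DESeq2 and 0.0087 with its size factors, and -0.046 to 0.0015 with a library left out). Pcdhac2 in the knockdown with bicuculline was at -0.012 in both TPM fits. The interaction turned on TPM for Pcdhgc4 (0.0016, 0.0019) and Pcdhgc5 (0.083, 0.085). With a library left out it ranged from -0.091 to 0.093 for Pcdhgc4, -0.16 to 0.097 for Pcdhgc5, -0.071 to 0.031 for Pcdhb9, -0.031 to 0.20 for Pcdhb21, -0.054 to 0.14 for Pcdhgb7 and -0.13 to 0.019 for Pcdhgc3.

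Log2 ratios of cluster sums, without TMM and then on TPM, were -0.17 and -0.21 for alpha, -0.40 and -0.44 for beta and -0.024 and -0.059 for gamma with bicuculline in Control-shRNA, and -0.22 and -0.27, -0.34 and -0.37, and -0.038 and -0.065 in Dnmt3a1-shRNA. For the knockdown in baseline they were 0.053 and 0.018 for alpha, -0.065 for beta on TPM and 0.23 and 0.17 for gamma, and with bicuculline 0.00098 and -0.034 for alpha, 0.013 and -0.0036 for beta and 0.17 for gamma on TPM.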
